A study of Mus musculus with 10 samples.

Results

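A set of 9 secreted or membrane-bound genes of extracellular proteolysis was examined in supporting cells of the murine utricle: the tissue inhibitors of metalloproteinases Timp1, Timp2 and Timp3, the matrix metalloproteinases Mmp2, Mmp9, Mmp14 and Mmp15, and the sheddases Adam10 and Adam17. They were chosen by symbol for their role, with earlier results of these data known. All 9 were found among the 48709 genes in each table, of which 21695 are protein-coding. The 10 RNA-sequencing libraries came from utricles of Lfng-EGFP mice of age P21 that were cultured whole, after which the fluorescent cells were sorted. The reporter marks cells in which Lfng is active, so each library holds what passed that gate in an explant and not an intact organ. TRULI is a small molecule that blocks the Lats kinases of the Hippo pathway, and every culture, controls included, received the solvent DMSO at 0.1%. The group DMSO 5 d, with 3 libraries, had solvent alone for 5 days, and the group TRULI 5 d, with 3 libraries, had 10 μM TRULI for the same time. The group DMSO 5 d + 5 d, with 2 libraries, had solvent for 5 days and then 5 days of recovery with no treatment, and the group TRULI 5 d + 5 d, with 2 libraries, had 10 μM TRULI for 5 days and the same recovery. Lats kinases restrain Yap, a coactivator that works through the Tead transcription factors. The study asked what inhibiting Lats does to expression in these cells and what remains of it after the compound is withdrawn.

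For 4 of the 10 libraries the sample label and the name under which the table was deposited give different conditions. The libraries labelled TRULI 5 d replicates 1 and 2 were deposited under the names of DMSO 5 d + 5 d replicates 1 and 2. The libraries labelled DMSO 5 d + 5 d replicates 1 and 2 were deposited as TRULI 5 d replicates 2 and 3. Label and name give the same condition for the 3 DMSO 5 d libraries, for the library labelled TRULI 5 d replicate 3 and for both TRULI 5 d + 5 d libraries. Groups below follow the sample labels unless the deposited names are mentioned, and each comparison of the design is given under both. The tables summed to between 2463872 and 6255149 counts, so that 3 counts, taken as the floor of detection, correspond to between 0.471 and 1.20 CPM (counts scaled to the size of the library). The mitochondrial ribosomal RNA mt-Rnr2 took 13.0% to 26.4% of the counts in 6 libraries. It took 1.45% to 2.53% in the other 4, which are those labelled TRULI 5 d replicates 1 and 2 and TRULI 5 d + 5 d replicates 1 and 2. The label group TRULI 5 d is therefore mixed in this share, the 2 recovery groups lie on opposite sides of it, and under the deposited names the split coincides with the day of collection. All 6 markers fixed for supporting cells (Lfng, Sox2, Sox9, Otoa, Otog and Slc1a3) had counts in every group. Their summed level per transcript length (FPKM) was 3031 to 5036 in the 6 libraries with much mt-Rnr2 and 998 to 1965 in the other 4. Otog was the largest part of this sum in most libraries, here and below. Lfng, Sox2, Otoa and Slc1a3 were each lower in all of the 4 than in any of the 6. Otog overlapped between the 2 sets, as did Sox9, at 168.5 to 252.4 FPKM in the 4 and 167.5 to 268.0 FPKM in the 6. The 6 hair-cell markers summed to 9.10 to 245 FPKM, the 7 markers of fibroblasts and mesenchyme to 4.66 to 55.5 and the 4 of glia to 16.7 to 42.7. The 7 macrophage markers summed to 0.964 to 30.4 with Cx3cr1, Adgre1, C1qa and C1qb at 0 throughout, and the neutrophil and endothelial lists reached at most 1.36 and 1.21. Cd68 gave nearly all of the macrophage sum in every library, and Pmel nearly all of the sum of the melanocyte markers Dct, Tyr and Pmel. The macrophage and melanocyte sums given below therefore describe single genes more than cell types. In sorted but still bulk material, fewer cells of a type and less RNA per cell cannot be told apart.

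Timps are small secreted proteins that occupy the catalytic cleft of metalloproteinases and block it. Timp2 has a further role, since on the cell surface it forms a bridge between Mmp14, a protease anchored in the plasma membrane, and the inactive precursor of Mmp2, which is then cut into its active form. Timp3 is bound to the extracellular matrix and also blocks the sheddases Adam10 and Adam17, which release the outer parts of membrane proteins such as Notch receptors, cadherins and the precursors of growth factors. Mmp2 and Mmp9, the gelatinases, degrade the type IV collagen of basement membranes.

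The 9 genes lie on 8 chromosomes of the mouse genome GRCm38, with Mmp2 and Mmp15 sharing chromosome 8. By the GENCODE annotation, Timp1 (ENSMUSG00000001131) occupies chromosome X, 20870166 to 20874735, on the plus strand, inside Syn1, which lies on the opposite strand. Timp2 (ENSMUSG00000017466) occupies chromosome 11, 118301069 to 118355740, on the minus strand, and contains Cep295nl on the same strand. Timp3 (ENSMUSG00000020044) occupies chromosome 10, 86300372 to 86349506, on the plus strand, inside Syn3 on the opposite strand. By these annotations all 9 are protein-coding. Whether reads were counted by strand is not given in the sources used here. Syn1 had 0 counts in 8 libraries, 3 in the one labelled TRULI 5 d replicate 3 and 2 in the one labelled DMSO 5 d + 5 d replicate 1, so that it was at or under the floor throughout. Syn3 had between 3 and 40 counts and Cep295nl had 0 in every library. The end of Adam17 overlaps Iah1, which had 39 to 160 counts. The 250 bases before the RefSeq start of each inhibitor (GRCm38.p6, read 5′ to 3′ on the strand of the gene) are shown because the inhibitors carry the differences described below. Capitals mark CG dinucleotides.
Timp1, chrX:20869916-20870165, plus strand: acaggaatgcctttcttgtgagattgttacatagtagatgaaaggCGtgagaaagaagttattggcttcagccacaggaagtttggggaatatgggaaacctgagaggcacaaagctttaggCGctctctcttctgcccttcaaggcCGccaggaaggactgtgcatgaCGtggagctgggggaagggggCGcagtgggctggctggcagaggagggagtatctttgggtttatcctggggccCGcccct
Timp2, chr11:118355412-118355661, minus strand: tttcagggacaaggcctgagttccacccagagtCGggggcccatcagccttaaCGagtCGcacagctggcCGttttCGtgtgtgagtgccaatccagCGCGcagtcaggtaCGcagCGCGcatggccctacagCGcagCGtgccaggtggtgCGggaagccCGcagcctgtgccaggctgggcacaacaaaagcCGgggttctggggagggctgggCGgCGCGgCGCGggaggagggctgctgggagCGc
Timp3, chr10:86300162-86300411, plus strand: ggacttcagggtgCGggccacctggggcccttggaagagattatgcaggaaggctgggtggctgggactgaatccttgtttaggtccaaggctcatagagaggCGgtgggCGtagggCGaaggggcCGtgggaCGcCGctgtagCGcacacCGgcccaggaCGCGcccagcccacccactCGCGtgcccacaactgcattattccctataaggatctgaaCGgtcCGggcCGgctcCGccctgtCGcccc
The Timp1 stretch held 6 CG dinucleotides and 54.4% G or C, against 21 and 68.0% for Timp2 and 18 and 65.6% for Timp3. Over 32851 promoters in the same table the median was 6 CG dinucleotides with quartiles of 2 and 16, so the Timp1 stretch had the median number and those of Timp2 and Timp3 lay above the upper quartile. A search of both strands for the Tead motif GGAATG found 1 match in the Timp1 stretch, at 247 bases before the start, and none in the stretches of the other 6 members with an entry. Of all promoters 12.64% hold that motif. The AP-1 motif TGANTCA, held by 6.749% of promoters, had no match in any of the 7. A match of letters is a description and not a binding site. No promoter entry was at hand for Mmp2 and Mmp9.

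In the DMSO 5 d libraries, compared per transcript length, Mmp14 had the highest mean level of the 9 members, 55.1 ± 15.6 FPKM (SD, n = 3). Adam10 followed with 44.1 ± 4.89, Timp2 with 31.0 ± 14.6 and Mmp15 with 26.7 ± 5.77 FPKM. Their ranges overlapped from each to the next, so the order of neighbours among these 4 does not exceed the spread between libraries. Mmp14 and Adam10 both lay wholly above Mmp15. Adam17 had 17.6 ± 1.82 and Timp3 12.9 ± 2.24 FPKM, and the ranges of Mmp15, Adam17 and Timp3 did not overlap. Mmp2 reached 8.30 ± 2.86 FPKM and Timp1 4.24 ± 3.38 FPKM, with ranges that overlapped with those of their neighbours in the order. Mmp9 had no count in any of these 3 libraries. Timp2 and Timp3 therefore supplied most of the inhibitor transcripts, and the membrane-anchored Mmp14 and Mmp15 most of the Mmp transcripts.

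The makeup of the inhibitor transcripts differed between libraries. The 3 Timps summed to 26.8 FPKM in the library labelled TRULI 5 d replicate 2 and to 133 FPKM in that labelled DMSO 5 d + 5 d replicate 1, the lowest and highest. Timp1 made up 0.387% to 16.5% of this sum in the 6 libraries with much mt-Rnr2, and 24.5% to 59.4% in the other 4. Timp2 was the largest of the 3 in 8 libraries, with 54.3% to 75.3% of the sum in the 6 with much mt-Rnr2. Among the Mmps, Mmp14 made up 42.2% to 62.9% of the summed FPKM in those 6 libraries and 23.5% to 35.0% in the other 4. The ratio of summed Timp to summed Mmp levels ran from 0.360 to 1.38, lowest in DMSO 5 d replicate 1 and highest in the library labelled TRULI 5 d replicate 2. The ratio of Adam10 to Adam17 ran from 1.501 to 4.57.

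**Figure D1:**
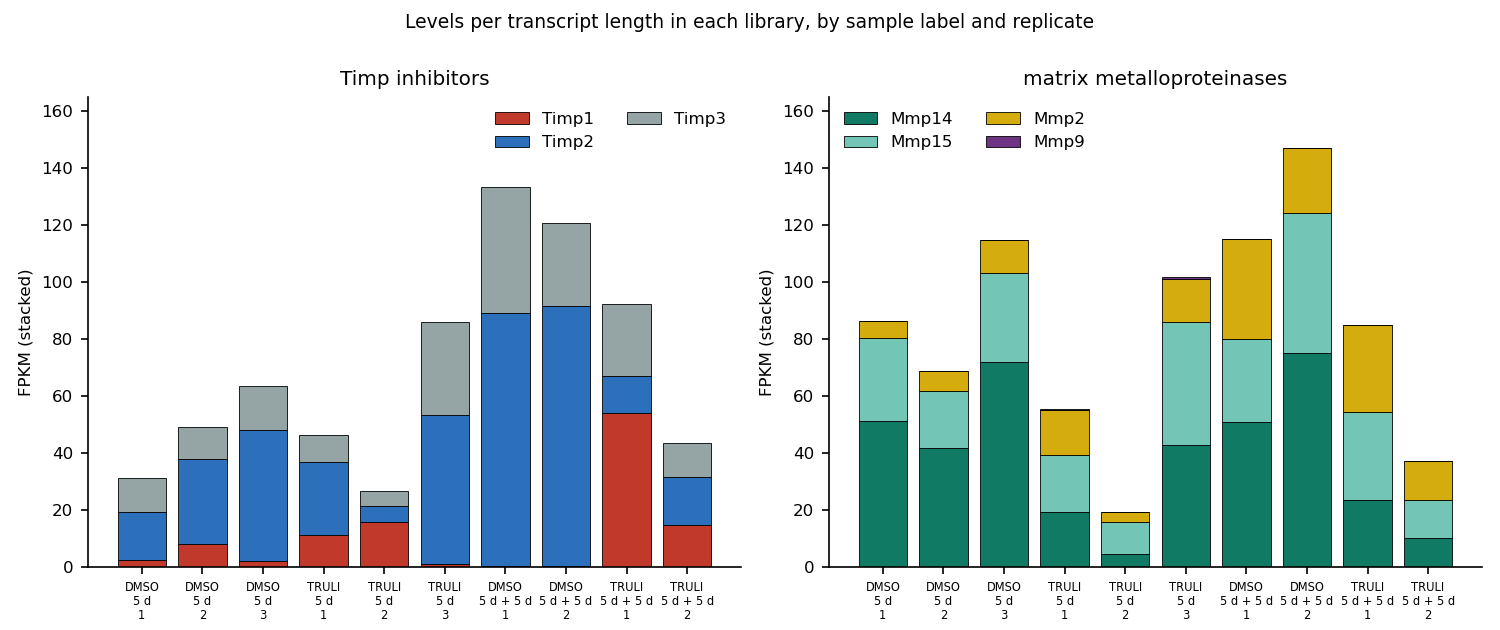
Stacked levels of the 3 Timps (left) and 4 Mmps (right) in FPKM, with 1 bar for each of the 10 libraries in the order of their sample labels and replicate numbers. Timp1 was the largest inhibitor segment only in the libraries labelled TRULI 5 d replicate 2 and TRULI 5 d + 5 d replicate 1, where it made up 59.4% and 58.5% of the sum, and the bars of Mmp9 are at or close to 0.

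Of the inhibitors, Timp1 varied most. It had 1.20, 3.95 and 0.994 CPM in DMSO 5 d replicates 1 to 3, and 6.59, 10.4 and 0.527 CPM in the libraries labelled TRULI 5 d replicates 1 to 3. It had 0.249 and 0.225 CPM, a single count each, in the libraries labelled DMSO 5 d + 5 d and 29.99 and 8.97 CPM, or 172 and 44 counts, in those of TRULI 5 d + 5 d. The 4 libraries with little mt-Rnr2 were the 4 highest, and in 3 libraries, all of them named TRULI 5 d at deposit, it was under the floor of 3 counts.

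Timp2 ran nearly opposite. It had 47.3, 83.7 and 125 CPM in DMSO 5 d and 83.4, 21.6 and 135 CPM in the libraries labelled TRULI 5 d. It had 221 and 254 CPM in those labelled DMSO 5 d + 5 d, and 41.2 and 59.7 CPM in those of TRULI 5 d + 5 d. The libraries labelled DMSO 5 d + 5 d stood above all others, and the one labelled TRULI 5 d replicate 2 was the lowest. Timp3, the inhibitor held in the matrix, had 41.3, 40.2 and 52.9 CPM in DMSO 5 d and 40.5, 24.1 and 106 CPM in the libraries labelled TRULI 5 d. It had 138 and 104 CPM in those labelled DMSO 5 d + 5 d and 103 and 54.4 CPM in TRULI 5 d + 5 d. The 3 libraries deposited as TRULI 5 d were the highest for both Timp2 and Timp3, whatever their label.

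The gelatinase Mmp2 had 10.0, 9.88 and 22.6 CPM in DMSO 5 d, and 35.9, 11.2 and 20.8 CPM in the libraries labelled TRULI 5 d. It had 46.4 and 34.4 CPM in those labelled DMSO 5 d + 5 d and 51.3 and 21.001 CPM in TRULI 5 d + 5 d. Values above 30 CPM occurred in 3 of the 4 label groups and the groups overlapped widely, except that both libraries labelled DMSO 5 d + 5 d lay above all those of DMSO 5 d. The other gelatinase, Mmp9, had 2 counts in each of the libraries labelled TRULI 5 d replicates 1 and 3, which is 0.314 and 0.527 CPM, and 0 in the other 8. All values were under the floor of 3 counts, so no fold change is given and Mmp9 passed the filter on low counts in none of the comparisons.

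The membrane-type protease Mmp14 had 96.9, 79.4 and 133 CPM in DMSO 5 d and 42.2, 11.5 and 75.4 CPM in the libraries labelled TRULI 5 d. It had 86.5 and 143 CPM in those labelled DMSO 5 d + 5 d, and 50.7 and 24.5 CPM in TRULI 5 d + 5 d. Every TRULI library lay below every DMSO library by label, and the 4 lowest were those with little mt-Rnr2. Mmp15, a related membrane-type protease, had 114, 79.4 and 118 CPM in DMSO 5 d and 92.5, 58.7 and 149 CPM in the libraries labelled TRULI 5 d. It had 103 and 193 CPM in those labelled DMSO 5 d + 5 d and 137 and 67.3 CPM in TRULI 5 d + 5 d. Its 4 groups all overlapped.

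The sheddase Adam10 had 142, 174 and 143 CPM in DMSO 5 d and 155, 239.9 and 79.6 CPM in the libraries labelled TRULI 5 d. It had 99.98 and 77.0 CPM in those labelled DMSO 5 d + 5 d and 192 and 461 CPM in TRULI 5 d + 5 d. The 3 lowest libraries were the 3 deposited as TRULI 5 d, and TRULI 5 d + 5 d replicate 2 stood far above the rest. Adam17 varied least among the members. It had 66.1, 47.1 and 51.4 CPM in DMSO 5 d, 64.9, 50.4 and 51.6 CPM in the libraries labelled TRULI 5 d, and 41.1 and 44.9 CPM in those labelled DMSO 5 d + 5 d. Both TRULI 5 d + 5 d libraries, at 88.1 and 103 CPM, lay above all others.

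**Figure D2:**
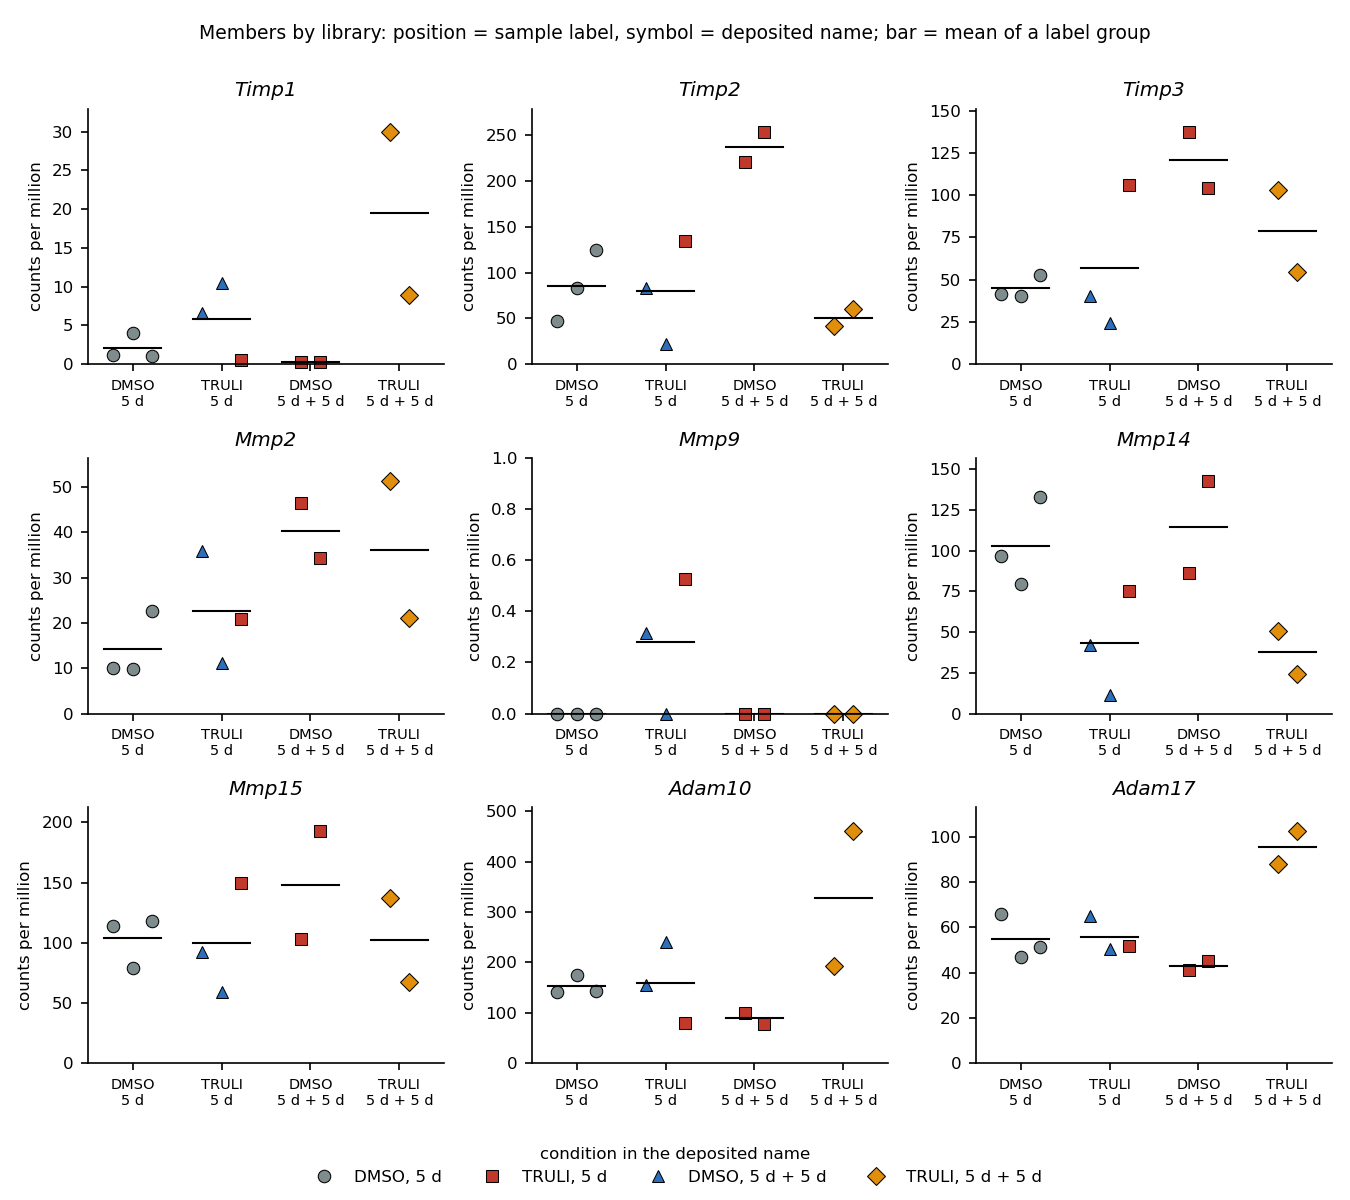
CPM (vertical axes, linear from 0) of each of the 9 members in the 10 libraries, placed by sample label, with the symbol giving the condition in the deposited name and a bar at the mean of each label group. Squares mark the libraries deposited as TRULI 5 d, which were the 3 highest for Timp2 and Timp3 and the 3 lowest for Adam10, and Timp1 was highest in TRULI 5 d + 5 d replicate 1 at 29.99 CPM.

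The first comparison asked which members differed between TRULI and solvent after 5 days. By sample label no member was called changed. Of the 8 members that passed the filter on low counts 0 were called, against 0.00945% of the 10580 protein-coding genes tested called higher and 0% called lower (quasi-likelihood test of edgeR, Benjamini-Hochberg adjusted p below 0.05 together with a log2 fold change larger than 1 in either direction). At an unadjusted p under 0.05 the members also numbered 0, and DESeq2 called 0. The groups did not overlap for 1 of the 8 members, Mmp14, against 18.4% of all genes tested. Mmp14 was lower with TRULI by a log2 fold change of -1.24 (SE 0.58, edgeR adjusted p = 0.379). Timp1 had a log2 fold change of 1.52 (SE 1.03, edgeR adjusted p = 0.502) and Mmp2 of 0.69 (SE 0.55, edgeR adjusted p = 0.571). The other 5 lay between -0.07 and 0.36. The median over the 8 members was 0.05, beside 0.04 over all genes tested. Without the library labelled TRULI 5 d replicate 3, whose share of mt-Rnr2 was that of the controls, Mmp14 was called with a log2 fold change of -1.93 (edgeR adjusted p = 0.0350). The TRULI libraries left in that fit had little mt-Rnr2 and the controls much, which cannot be told apart from treatment. These are also the libraries of the comparison between the DMSO groups by deposited name given below, so the call is not a separate result. With only the 4 libraries above 10% mt-Rnr2, which leaves that library alone against the 3 controls, Timp3 had a log2 fold change of 1.24 (edgeR adjusted p = 0.103), Adam10 of -0.94 (edgeR adjusted p = 0.265) and Mmp14 of -0.45 (edgeR adjusted p = 0.754), and 0 members were called. The spread in that fit came from the 3 controls alone, the lone library being assumed to vary like them.

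With groups from the deposited names, all 6 libraries of this comparison had 13.0% mt-Rnr2 or more, and 1 of 7 tested members was called, beside 2.09% of all protein-coding genes called higher and 0.992% lower. That member was Timp3, which rose by a log2 fold change of 1.39 (SE 0.23, edgeR adjusted p = 0.0106). Timp2 was higher by 1.27 (SE 0.35, edgeR adjusted p = 0.0845) and Mmp2 by 1.26 (SE 0.41, edgeR adjusted p = 0.145). Adam10 was lower by a log2 fold change of -0.82 (SE 0.21, edgeR adjusted p = 0.0636). The groups did not overlap for 3 of the 7, Timp2, Timp3 and Adam10, against 21.4% of genes tested. Deviations from the group means correlated at 0.156 or more in each of the 3 pairs of libraries with the same number in the deposited names. Deviations within a group sum to 0, so the correlations for other numbers largely follow from these and are no separate contrast. Whether the same number marks a shared animal or preparation is not given. The block fit that follows therefore rests on a pairing that is not established. With the replicate block Timp2 rose by 1.33 (edgeR adjusted p = 0.000815), Timp3 by 1.39 (edgeR adjusted p = 0.00160) and Mmp2 by 1.29 (edgeR adjusted p = 0.0294). Adam10 then had an edgeR adjusted p of 0.00855 with a log2 fold change of -0.82, short of the fold required. Timp1 did not pass the filter, with 4 counts in all over the 3 libraries named TRULI 5 d and 19 over the 3 controls. Without DMSO 5 d replicate 2 the call on Timp3 was lost at a log2 fold change of 1.31 (edgeR adjusted p = 0.0819). Fibroblast markers, all 7 of which had counts, summed to 11.8 to 55.5 FPKM in the libraries named TRULI 5 d and 4.66 to 8.78 FPKM in the controls. Col1a2, Dcn, Lum and Postn were each higher in every library named TRULI 5 d, and Col1a1 and Col3a1 overlapped. Pdgfra was not higher, at 2.70 to 3.80 against 3.14 to 5.82 FPKM, and Postn alone gave 28.0 of the 55.5 FPKM. The macrophage markers, with Cx3cr1, Adgre1, C1qa, C1qb and Ptprc at 0, summed to 7.96 to 19.3 and 1.28 to 3.80 FPKM. The part of these cell types in the higher Timp3, Timp2 and Mmp2 was not tested.

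The second comparison asked which members differed between TRULI and solvent after 5 further days of recovery. By sample label Timp1 rose and Timp2 fell, so that 2 of 8 tested members were called, 1 in each direction, beside 0.985% of the 11469 protein-coding genes tested called higher and 1.06% lower. Timp1 had a log2 fold change of 6.23 (SE 1.06, edgeR adjusted p = 0.0425), and Timp2 fell by 2.23 (SE 0.38, edgeR adjusted p = 0.0425). Timp1 passed the filter through the TRULI libraries alone and so had to differ, and with 1 count in each control the fitted fold depends on the prior count. From the counts themselves, 216 against 2, the rate of Timp1 in the TRULI libraries was 85.9 times that in the controls, with an exact 95% interval of 23.5 to 714 that covers counting error only. Groups were apart for 6 of the 8 members, against 58.1% of all genes tested, so the members did not stand apart from the background in this respect. Besides Timp1 and Timp2 these were Adam10, higher by a log2 fold change of 1.89 (SE 0.47, edgeR adjusted p = 0.0756), Adam17, higher by 1.15 (SE 0.37, edgeR adjusted p = 0.119), Mmp14, at -1.60 (SE 0.49, edgeR adjusted p = 0.110), and Timp3, at -0.61 (SE 0.42, edgeR adjusted p = 0.409). Mmp2 and Mmp15 had log2 fold changes of -0.14 and -0.53 and overlapped. The median over the 8 members was -0.34, beside 0.01 over all genes tested.

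These 2 label groups lay on opposite sides of the split in mt-Rnr2, so treatment and whatever that share reflects cannot be told apart here. Summed supporting-cell markers were 3171 to 3482 FPKM in the controls and 1332 to 1687 with TRULI, and the 3 melanocyte markers, with Tyr at 0, summed to 8.03 to 9.30 and 0.212 to 4.15 FPKM. The hair-cell, fibroblast, macrophage and glial sums overlapped, and the part of these cell types in the calls was not tested. Leaving out DMSO 5 d + 5 d replicate 1 or 2 ended both calls, with Timp1 at 6.27 (edgeR adjusted p = 0.242) and 6.18 (0.201) and Timp2 at -2.36 (0.202) and -2.11 (0.207), the lone library being taken to vary like those of the other group. A single fit over all 10 libraries ended them as well, with Timp1 at 6.20 (edgeR adjusted p = 0.176) and Timp2 at -2.24 (edgeR adjusted p = 0.177).

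With groups from the deposited names, all 4 libraries of the recovery comparison had 2.53% mt-Rnr2 or less, and edgeR called 0 of 8 members, as did DESeq2, beside 0% of all genes tested called in either direction by edgeR, with 490 of 10845 at an unadjusted p under 0.05 and 46 called by DESeq2. At an unadjusted p under 0.05 there was 1 member, Timp3, with a log2 fold change of 1.30 (SE 0.56, edgeR adjusted p = 0.9998). Timp1 had 1.23 (SE 0.83), Timp2 -0.05 (SE 0.66), Adam10 0.73 (SE 0.48) and Adam17 0.74 (SE 0.46), each with an edgeR adjusted p of 0.9998. The groups did not overlap for 2 of the 8 members, Timp3 and Adam17, against 28.7% of genes tested. The hair-cell markers summed to 9.10 to 9.67 FPKM in the libraries named DMSO 5 d + 5 d and to 33.6 to 220 FPKM in TRULI 5 d + 5 d.

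**Figure D3:**
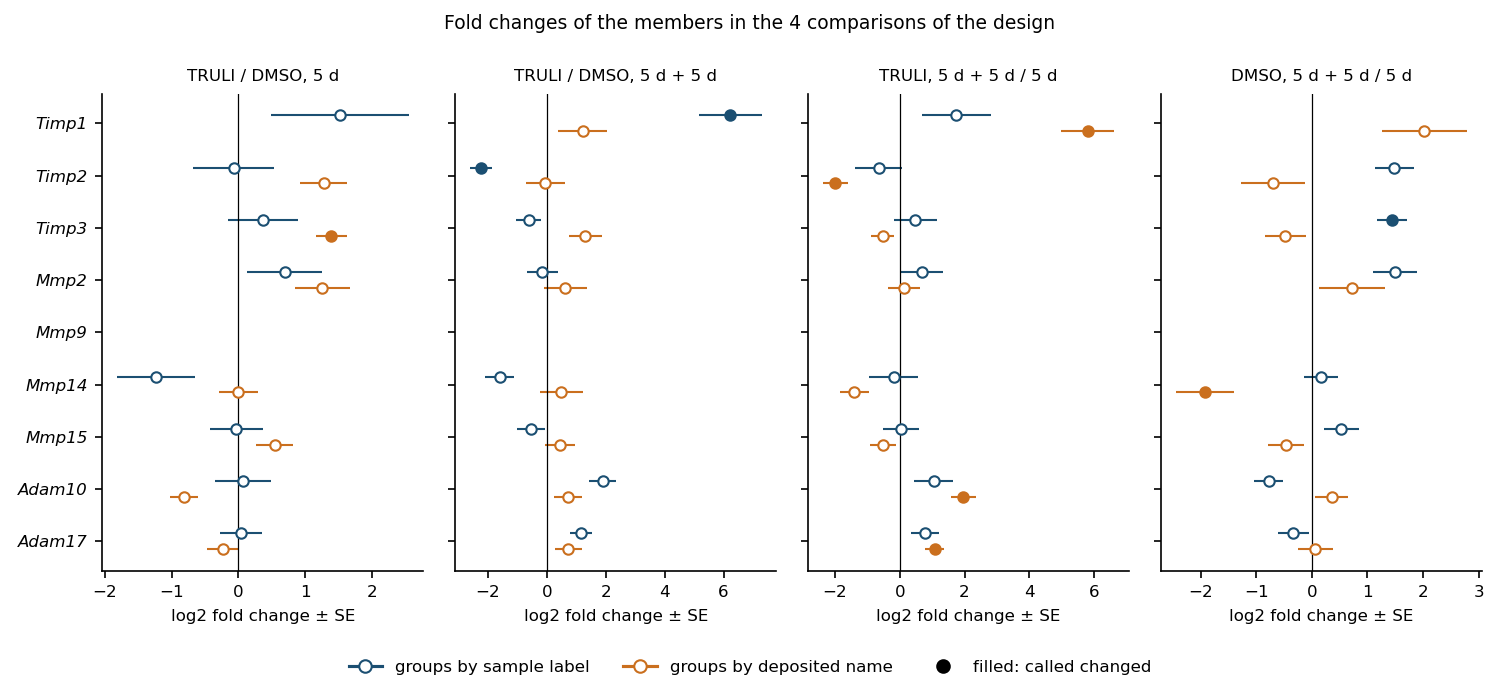
Log2 fold changes with their SE (horizontal axes, a different scale in each panel) of the members tested in the 4 comparisons of the design, with groups from the sample labels in blue and from the deposited names in orange, filled where the gene was called. Under the labels the filled points are Timp1 and Timp2 after recovery and Timp3 between the DMSO groups, and Mmp9 was never tested.

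The third comparison set TRULI 5 d + 5 d against TRULI 5 d, and addressed the withdrawal of the compound. By sample label no member was called changed, with 0 of 8 tested called by edgeR, 0 by DESeq2 and 0 at an unadjusted p under 0.05 in edgeR. Of all genes tested, edgeR called 0% in either direction. Its unadjusted p was under 0.05 for 347 of 11444 genes, and DESeq2 called 4. Timp1 had a log2 fold change of 1.75 (SE 1.06) and Adam10 of 1.05 (SE 0.60), each with an edgeR adjusted p of 0.999. Only Adam17 had groups that did not overlap, 1 of 8 against 15.9% of genes tested. Within the 4 libraries below 10% mt-Rnr2, Timp1 had a log2 fold change of 1.23 and Timp2 of -0.05, and 0 members were called. These are the libraries of the recovery comparison by deposited name given above, so this is the same fit and not a separate result.

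With groups from the deposited names 4 of 8 members were called, 3 higher and 1 lower, beside 8.16% of all genes tested called higher and 5.91% lower. Timp1 rose by a log2 fold change of 5.81 (SE 0.82, edgeR adjusted p = 0.0105), from 4 counts over 3 libraries to 216 over 2, a rate ratio of 62.2 with an exact 95% interval of 24.0 to 230.4. It passed the filter through TRULI 5 d + 5 d alone and so had to differ, and with 2, 1 and 1 counts in the other group its fitted fold depends on the prior count. Adam10 rose by 1.96 (SE 0.38, edgeR adjusted p = 0.0197) and Adam17 by 1.08 (SE 0.29, edgeR adjusted p = 0.0431), while Timp2 fell by 1.99 (SE 0.39, edgeR adjusted p = 0.0196). Mmp14 was lower at -1.41 (SE 0.45, edgeR adjusted p = 0.0694). There was no overlap between groups for 6 of 8 members against 51.6% of genes tested. The libraries here are those of the recovery comparison by label together with the one named TRULI 5 d replicate 1. The values of Timp1 and Timp2 in these comparisons are therefore not separate results. The 2 groups lay on opposite sides of the split in mt-Rnr2, which cannot be told apart from withdrawal. Supporting-cell markers summed to 1332 to 1687 FPKM after recovery and 3031 to 3482 FPKM at 5 days. Melanocyte markers summed to 0.212 to 4.15 and 6.75 to 9.30 FPKM, nearly all from Pmel, and the part of these differences in the calls was not tested. Without deposited-name TRULI 5 d replicate 1, 2 or 3 the calls on Adam10 and Adam17 were lost, with adjusted p between 0.0612 and 0.191 by edgeR. Timp1 lost its call without the library named TRULI 5 d replicate 2 (edgeR adjusted p = 0.0731), and Timp2 without that library or replicate 3 (0.0861 and 0.0512). Adam17 also lost its call without TRULI 5 d + 5 d replicate 2, at 0.93 (edgeR adjusted p = 0.0923).

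The fourth comparison, between solvent cultures after recovery and at 5 days, addressed time in culture without the compound. By sample label Timp3 rose by a log2 fold change of 1.44 (SE 0.26, edgeR adjusted p = 0.0158), the only call among 7 tested members, beside 2.04% of genes tested called higher and 0.449% lower. Timp2 was higher by 1.49 (SE 0.35, edgeR adjusted p = 0.0508) and Mmp2 by 1.497 (SE 0.40, edgeR adjusted p = 0.0864). Adam10 was lower at -0.78 (SE 0.26, edgeR adjusted p = 0.168) and Adam17 at -0.34 (SE 0.27, edgeR adjusted p = 0.625). The groups did not overlap for these 5 members, 5 of 7 tested, against 31.5% of all genes tested. All libraries of this fit are also in the 5-day comparison by deposited name, which adds the library named TRULI 5 d replicate 1. The libraries taken here for time in culture are taken there for TRULI. The values of the members in these comparisons are therefore not separate results. Timp1, with 2 counts over the libraries labelled DMSO 5 d + 5 d, did not pass the filter. The call on Timp3 was lost without DMSO 5 d replicate 2, at 1.37 (edgeR adjusted p = 0.0905), and without the library labelled DMSO 5 d + 5 d replicate 1, at 1.25 (edgeR adjusted p = 0.0854), and in a single fit over all 10 libraries, at 1.43 (edgeR adjusted p = 0.717). The fibroblast markers summed to 11.8 to 55.5 FPKM in the libraries labelled DMSO 5 d + 5 d and 4.66 to 8.78 FPKM in DMSO 5 d. Col1a2, Dcn, Lum and Postn were each higher, Col1a1 and Col3a1 overlapped, and Pdgfra was not higher (2.70 to 3.62 against 3.14 to 5.82 FPKM). Postn alone gave 28.0 of the 55.5 FPKM. The macrophage sums were 7.96 to 19.3 and 1.28 to 3.80 FPKM, with 6 of the 7 markers at 0 in both groups, and the melanocyte sums 8.03 to 9.30 and 5.82 to 7.75 FPKM. The part of these differences in the values of the members was not tested.

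With groups from the deposited names the member called was Mmp14, 1 of 8 tested, which fell by 1.93 (SE 0.52, edgeR adjusted p = 0.0350), beside 10.5% of genes tested called higher and 8.17% lower. Timp1, which passed the filter through the libraries named DMSO 5 d + 5 d, was higher by 2.03 (SE 0.77, edgeR adjusted p = 0.0926), and for Timp3 the direction turned, to -0.48 (SE 0.37, edgeR adjusted p = 0.375). Groups were apart for 2 of 8 members, Timp1 and Mmp14, against 54.9% of genes tested. The call on Mmp14 was lost without each of DMSO 5 d replicates 1 to 3 (edgeR adjusted p between 0.0874 and 0.113) and without the library named DMSO 5 d + 5 d replicate 2, at -1.27 (0.0541). These groups too lay on opposite sides of the split in mt-Rnr2. Hair-cell markers summed to 9.10 to 9.67 FPKM after recovery and 45.4 to 71.0 FPKM at 5 days, and supporting-cell markers to 998 to 1965 and 3126 to 5036 FPKM. The melanocyte sums, from Pmel alone with Dct and Tyr at 0, were 0.178 to 2.29 and 5.82 to 7.75 FPKM. The macrophage sums were 6.27 to 8.02 and 1.28 to 3.80 FPKM, nearly all from Cd68, with Cx3cr1, Adgre1, C1qa and C1qb at 0. The part of these differences in the lower Mmp14 was not tested.

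A further comparison was added after the data were seen, between the 2 groups whose labels and deposited names give the same condition for every library. TRULI 5 d + 5 d and DMSO 5 d differ in treatment, in day and in mt-Rnr2, which cannot be told apart. Timp1 rose by 3.24 (SE 0.78, edgeR adjusted p = 0.0241) and Mmp14 fell by 1.46 (SE 0.41, edgeR adjusted p = 0.0373), so that 2 of 8 tested members were called, beside 11% of genes tested called higher and 8.69% lower. Supporting-cell markers summed to 1332 to 1687 FPKM in TRULI 5 d + 5 d and 3126 to 5036 FPKM in DMSO 5 d. Melanocyte markers summed to 0.212 to 4.15 and 5.82 to 7.75 FPKM, nearly all from Pmel, and the part of these differences in the calls was not tested. The counts of Timp1, 216 in 2 libraries against 19 in 3, gave a rate ratio of 10.2 with an exact 95% interval of 6.38 to 17.3. With 3, 12 and 4 counts in DMSO 5 d, Timp1 passed the filter through the TRULI libraries and so had to differ, and its fitted fold depends on the prior count. Mmp2, Adam10, Adam17 and Timp3 were higher by 1.33, 1.09, 0.80 and 0.81 (edgeR adjusted p = 0.1075, 0.0646, 0.0864 and 0.133). Timp2 and Mmp15 had log2 fold changes of -0.76 and -0.03. There was no overlap between groups for 5 of 8 members against 53.1% of genes tested. Timp1 kept a positive log2 fold change without each library in turn, between 2.17 and 4.16, but the call was lost without each of DMSO 5 d replicates 1 to 3 and without TRULI 5 d + 5 d replicate 1 (edgeR adjusted p between 0.0510 and 0.0875). Mmp14 lost its call without each of the 3 DMSO 5 d libraries and without TRULI 5 d + 5 d replicate 2, at log2 fold changes from -1.58 to -1.04 (edgeR adjusted p between 0.0721 and 0.129). A single fit over all 10 libraries ended both calls, with adjusted p of 0.0936 for Timp1 and 0.177 for Mmp14 by edgeR.

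Whether the response to TRULI itself differed between 5 days and recovery was tested as an interaction over all 10 libraries, and 0 of 8 members were called by label and 0 by deposited name, with edgeR and with DESeq2, beside 0% of genes tested called by edgeR. Of the 11918 genes tested, edgeR's unadjusted p was under 0.05 for 792 by label and 1110 by deposited name, and DESeq2 called 12 higher and 30 lower by label and 40 and 39 by deposited name. At an unadjusted p under 0.05 in edgeR there were 4 members by label, Timp1, Timp2, Adam10 and Adam17, and 3 by deposited name, Timp1, Adam10 and Adam17. For Timp1 the response after recovery exceeded that at 5 days by 4.70 on the log2 scale (SE 1.69, edgeR adjusted p = 0.653), and for Timp2 the difference was -2.14 (SE 0.87, edgeR adjusted p = 0.674). By deposited name the difference was 3.73 for Timp1 (SE 1.19, edgeR adjusted p = 0.402) and -1.33 for Timp2 (SE 0.73, edgeR adjusted p = 0.581).

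Timp1 and Mmp14 did not overlap between the libraries with little and with much mt-Rnr2. Timp1 had 6.59 to 29.99 CPM in the 4 libraries with little mt-Rnr2 and 0.225 to 3.95 CPM in the other 6. Mmp14 had 11.5 to 50.7 CPM in those 4 and 75.4 to 143 CPM in the other 6. Timp2 and Adam10 overlapped between the 2 sets, Timp2 with 21.6 to 83.4 against 47.3 to 254 CPM and Adam10 with 155 to 461 against 77.0 to 174 CPM. These sets of libraries were seen in the data and are not groups of the study, and no test was made between them.

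**Figure D4:**
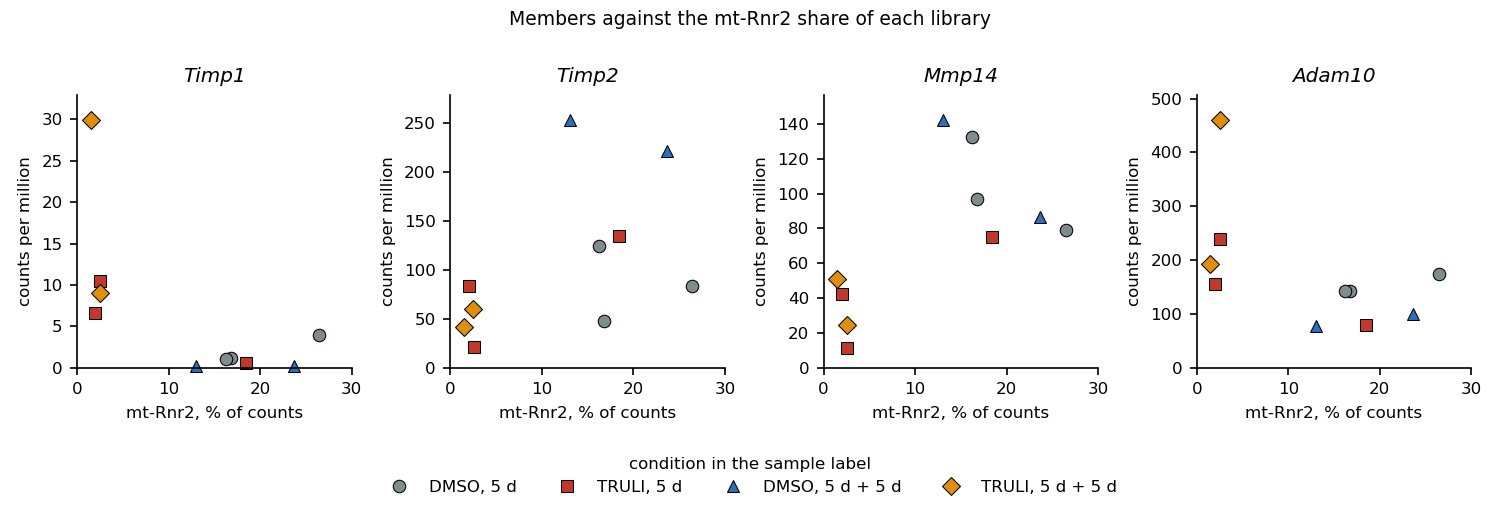
CPM of Timp1, Timp2, Mmp14 and Adam10 (vertical axes, linear from 0) against the percent of all counts taken by mt-Rnr2 in each of the 10 libraries, with symbols for the condition in the sample label. Timp1 and Mmp14 do not overlap between the 4 libraries at 1.45% to 2.53% and the 6 at 13.0% to 26.4%, and the libraries labelled TRULI 5 d fall on both sides.

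The other genes of the protease network, 72 in 7 lists by role, set the members in context. Of these, 14 had no count in any library. Of the 15 other secreted Mmps, 8 had none, and Mmp11 and Mmp28 had counts in all 10 libraries, with medians of 4.06 and 2.42 FPKM. The fourth Timp, Timp4, was at 0 throughout, and the membrane-anchored Mmp inhibitor Reck had a median of 0.538 FPKM. The cysteine-protease inhibitor Cst3 had a median of 3037 FPKM and Bsg, a surface glycoprotein known to induce Mmps, 2433 FPKM. Of the tetraspanins that escort Adam10 to the surface, Tspan14 had a median of 140.0 FPKM, Tspan5 48.7 and Tspan15 26.6. Rhbdf1 and Frmd8, partners of Adam17, had 7.47 and 8.55 FPKM. Plat, the tissue plasminogen activator, had 278.7 FPKM and its inhibitor Serpine2 107 FPKM.

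By sample label, edgeR called 0 of 29 tested network genes at 5 days, 0 of 35 after recovery and 0 between the TRULI groups, where DESeq2 called 3, 8 and 0 and edgeR's unadjusted p was under 0.05 for 5, 10 and 1. Between the DMSO groups, edgeR called 3 of 34 network genes, beside 2.04% of all genes tested called higher and 0.449% lower. The matrix-degrading Adamts5 was higher after recovery by 4.99 (SE 1.12, edgeR adjusted p = 0.0418), with 0, 0 and 2 counts in DMSO 5 d and 49 and 12 after recovery. It passed the filter through the recovery group alone and so had to differ, and its fitted fold depends on the prior count. In the same comparison Mmp28 fell by 2.44 (SE 0.41, edgeR adjusted p = 0.00986) and Adam8 fell by 1.94 (SE 0.36, edgeR adjusted p = 0.0173). With deposited names, Mmp28 and Adam8 were the 2 genes called of 32 tested at 5 days, at -2.17 and -1.87 (edgeR adjusted p = 0.0112 and 0.0104), where 2.09% of all genes were called higher and 0.992% lower. All libraries of the label comparison between the DMSO groups are in this fit, so these calls are not separate results. After recovery 0 were called under the deposited names by edgeR or DESeq2, with 1 at an unadjusted p under 0.05 in edgeR. Between the groups named TRULI, 7 of 36 were called, beside 8.16% of all genes higher and 5.91% lower, of which Adam8 (2.34), Adam9 (1.93), the Adam10 partner Tspan5 (1.67) and the procollagen-processing Adamts2 (1.63) rose, and Adam12 (-3.44), Serpine2 (-1.53) and Adam15 (-1.46) fell, in log2 fold changes. Between the groups named DMSO, 10 of 30 were called, 6 higher and 4 lower, beside 10.5% of all genes higher and 8.17% lower. The 8 with the greatest change were Adamts19 (-4.11), the proprotein convertase Pcsk5 (-3.32), Mmp28 (-2.23) and Adam15 (-2.12), which fell, and Tspan5 (2.81), Cst3 (2.57), Bsg (1.85) and Adamts2 (1.73), which rose. Adamts19, with 2 and 0 counts after recovery against 13, 9 and 16, and Pcsk5, with 5 and 2 against 27, 22 and 22, passed the filter through DMSO 5 d alone, so that they had to differ and their fitted folds depend on the prior count. In the comparison of TRULI 5 d + 5 d with DMSO 5 d, 9 of 35 were called, beside 11% of all genes higher and 8.69% lower, among them Mmp28 (-3.43), Adamts1 (-1.64) and Serpine2 (-1.51), which fell, and Tspan5 (2.68), Cst3 (2.20), Mmp19 (2.12), Adam9 (1.71) and Frmd8 (1.41), which rose. Mmp19, with 5, 7 and 10 counts in DMSO 5 d against 61 and 46, and Mmp28, with 73, 81 and 100 against 20 and 7, are limited in the same way. Each passed the filter through the group where it is high. Between the DMSO groups Adam8 turned from -1.94 by label to 1.09 by deposited name (edgeR adjusted p = 0.0394).

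The genes whose log2 CPM most resembled that of each member across the 10 libraries are given as a description, with no p, since the 10 libraries share their groups, depth and mt-Rnr2 share and 11910 genes were searched. For Timp1 they included Wdr82 (Pearson's r = 0.951) and Irf2 (0.947), and for Timp2 Vamp1 (0.973), Gdpgp1 (0.954) and Tedc2 (0.946). For Timp3 they were Cdc25b (0.960), Pask (0.954) and Apaf1 (0.948). For Mmp2 they were Dusp5 (0.913), Adamts5 (0.898) and Lats2 (0.895), for Mmp14 Bcs1l (0.981), Dmap1 (0.980) and Ddx19a (0.974), and for Mmp15 Eef2k (0.936), Cpox (0.934) and Pltp (0.928). For Adam10 they were Ppil4 (0.948), Per2 (0.930) and Bcap31 (0.927), and for Adam17 Rabgef1 (0.944), Per3 (0.934) and Ndufa7 (0.930).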

How the data were processed

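Supporting cells sorted from Lfng-EGFP utricles were profiled by RNA sequencing in 10 libraries. The authors aligned reads with STAR to the GRCm38 assembly, and they deposited, for each library, a table of expected counts and effective lengths per gene, with no normalization applied to the counts. The counting program is not given in the sources used here. A QIAseq FX kit is named in the study's methods, whereas the sample labels describe poly(A) selection with another kit. Groups came from the sample labels, and from the deposited names as an alternative. The members, the gene lists and the markers were chosen with earlier results of these data known. The labels do not say which libraries came from separate animals, so p-values measure only the spread between these libraries.

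Symbols were taken from GENCODE M21, which matched 48349 of 48709 genes. Expected counts were rounded to whole numbers and tested with edgeR 4.0.16 in R 4.3.3 (filterByExpr, TMM, quasi-likelihood test) on the 2 groups of each comparison, with Benjamini-Hochberg adjustment over all genes tested. Protein-coding genes were called at an adjusted p below 0.05 together with a log2 fold change larger than 1 in either direction. The SE was obtained from the fold change and the F statistic. Alternatives were DESeq2 1.42.0, its size factors, no filter, protein-coding scaling, all 10 libraries in 1 fit, the replicate block and leaving out each library. CPM used TMM factors over all 10 libraries, and FPKM used effective lengths and the protein-coding total. Effective lengths of Mmp2 ran from 1519 to 2847 bases between libraries, so its FPKM and CPM can order libraries differently. Intervals and floors cover counting error only. Libraries were checked for duplicates, and chi-square divided by its degrees of freedom was 15.3 or more for every 2 libraries. For the 5-day libraries the mean correlation of deviations was 0.252 for the same replicate number in the deposited names and -0.127 for other numbers. For the same number in the labels it was -0.0786. Deviations within a group cancel out, so these values cannot establish a pairing.

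Members were followed in every comparison where they passed the filter, but the fold changes of some uncalled members are not printed. Other named genes were the network genes called in a comparison under either grouping, up to the 8 with the largest change. For each member with a mean of at least 1 CPM, the 3 protein-coding genes of highest Pearson correlation were named as well. A gene that met this rule is not reported here. Promoter sequences came from RefSeq (GRCm38.p6), where 7 of 9 members matched. The code was tested on simulated counts in which 200 genes differed 4-fold (dispersion 0.1). At 5 days it recovered 176 of them with 11 false calls among 10916 genes. After recovery it recovered 111 with 6 false calls among 11910 genes. The simulated libraries had the same dispersion for every gene and no split in mt-Rnr2 within a group, unlike the label group TRULI 5 d. These recoveries check the code and do not give the power of the real comparisons.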

Additional observations from a re-analysis of the deposited data

How the results depend on the processing

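Most statements above turn on how the 4 libraries with differing names are grouped. A member's fold change was counted as reversed only where it was called in 1 of the 2 fits, and uncalled values differed in sign in 174 of 908 alternatives, 133 of them with deposited-name groups. Mmp14 between the DMSO groups went from 0.16 by label to -1.93 with deposited-name groups, -1.94 with DESeq2 and -1.96 with the replicate block, and Timp3 from 1.44 to -0.48, -0.47 and -0.39. Timp2 at 5 days went from -0.07 to 1.26 with deposited-name groups in DESeq2 and 1.33 with the replicate block, and after recovery from -2.23 to 0.21 with the deposited-name replicate block. Leaving out a library under either grouping gave -3.12 to 0.50 for Mmp14, -1.95 to 1.87 for Timp2 and -0.86 to 1.62 for Timp3 between the DMSO groups, and -2.54 to 1.22 for Timp2 after recovery. The cause was not tested. Below, a range without 1 library covers both groupings.

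At 5 days 1 gene in all was called by label, and 269 with DESeq2, 567 without a filter, 2 with all 10 libraries in 1 fit, 0 with the replicate block and 127 among libraries above 10% mt-Rnr2. By deposited name 339 were called, 564 with DESeq2 and 672 with the replicate block, and without 1 library 0 to 2022, of which the deposited-name groups gave 51 to 371. Of the members 1, 2 and 3 were called by deposited name with edgeR, DESeq2 and the replicate block, and 0 to 1 without 1 library. Of the network genes 3 were called with DESeq2, 3 without a filter and, by deposited name, 2, 3 and 5 in the same order, and 0 to 10 without 1 library.

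After recovery 235 genes were called by label, 1399 with DESeq2, 1593 without a filter, 0 in the fit of all 10, 1203 with the replicate block and, by deposited name, 0, 46 and 0 with edgeR, DESeq2 and the block, and 0 to 2917 without 1 library, of which the deposited-name groups gave 0 to 2. Members numbered 4 with DESeq2, 4 without a filter, 0 in the fit of all 10, 0 by deposited name in all 3 fits, and 0 to 6 without 1 library. Network genes numbered 8 with DESeq2, 9 without a filter, 7 with the replicate block and 0 to 16 without 1 library.

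Between the TRULI groups 0 genes were called by label, 4 with DESeq2, 52 without a filter and 15 with the replicate block, and by deposited name 1638, 2574 and 1056, and 0 to 2424 without 1 library, the deposited-name groups giving 9 to 2424. Members numbered 4, 5 and 3 by deposited name and 0 to 5 without 1 library, and network genes 7, 9 and 7 and 0 to 15. The replicate block ended the deposited-name call on Adam17 (1.09, edgeR adjusted p = 0.139).

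Between the DMSO groups 282 genes were called by label, 472 with DESeq2, 725 without a filter, 4 in the fit of all 10, 555 with the replicate block, 2022, 2657 and 1059 by deposited name and 2 to 3886 without 1 library, the label groups giving 136 to 286. Members numbered 3 with DESeq2, without a filter and with the replicate block, 2 with DESeq2's size factors and with protein-coding scaling, 0 in the fit of all 10 and 0 to 3 without 1 library. Network genes numbered 5 with DESeq2, 6 without a filter, 6 with the replicate block, 0 in the fit of all 10, 10, 11 and 5 by deposited name and 0 to 14 without 1 library. Between TRULI 5 d + 5 d and DMSO 5 d the fit of all 10 called 11 genes, 0 members and 0 network genes, against 2186 genes in the comparison itself. Members numbered 4 without a filter, 0 with the replicate block, which gave Timp1 2.72 and Mmp14 -1.31, and 0 to 3 without 1 library. Network genes numbered 16 without a filter and 2 to 14 without 1 library, and genes in all 324 to 3333.

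No pairing can be judged from 2 pairs, and the deviations at 5 days do not establish one under either set of numbers. Low counts limit Timp1 and Mmp9, which had 0 to 12 counts in the libraries with much mt-Rnr2. Mmp9 had at most 2 counts in the libraries with little mt-Rnr2 as well.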
